A study of Mus musculus with 2 samples.

Results

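The genes described here are 9 chemokines, Ccl2, Ccl3, Ccl4, Ccl7, Ccl12, Ccl24, Cxcl2, Cxcl10 and Cxcl12, and the receptor Cxcr4. They are 10 of the 24543 genes listed in both count tables, chosen by name, and all 10 were detected. The cells carried CD31, an endothelial and blood cell surface protein, and the hyaluronan receptor CD44, and were sorted from the caudal region of mouse embryos on embryonic day 10. Control littermates (hashtag WT; Nupr1 fl/fl and Nupr1 fl/+ embryos without Cre-driven loss, on a C57BL/6 background like the others) were compared with embryos in which VEC-Cre, driven by the Cdh5 (VE-cadherin) promoter of endothelial cells, had deleted both floxed alleles of Nupr1, a stress-responsive nuclear protein (hashtag KO, cKO below). Each of the 2 replicates was 1 droplet library in which cells of both genotypes were pooled and told apart by the hashtag. Because Cdh5 is switched on in endothelium, the cells that descend from it, blood cells included, also carry the deletion, while cells of other origin do not. How many embryos each pool held is not given in the sources used here, so p-values below measure the spread between these pools.

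Chemokines are small secreted proteins that steer the migration of cells by binding to G protein-coupled receptors. The CC and CXC families are named after the spacing of their first cysteines. Ccl2, Ccl7 and Ccl12 bind Ccr2 on monocytes, Ccl3 binds Ccr1, Ccl4 is a close relative of Ccl3, and Ccl24 (eotaxin-2) binds Ccr3. Cxcl2 binds Cxcr2 and draws neutrophils, Cxcl10 is an interferon-responsive ligand of Cxcr3, and Cxcl12 is the ligand of Cxcr4 and of the scavenging receptor Ackr3. Cxcl12 and Cxcr4 take part in the patterning of arteries and in the homing of haematopoietic stem cells. Macrophages lie beside the dorsal aorta at the stage when haematopoietic cells bud from its wall, a process called endothelial-to-haematopoietic transition (EHT).

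In the GENCODE annotation of GRCm38, 5 of the genes lie on chromosome 11, in 2 groups. Ccl2 (82035571 to 82037453), Ccl7 (82045712 to 82047525) and Ccl12 (82101845 to 82103400) follow each other on the plus strand. Ccl3 (83647844 to 83649355, minus strand) and Ccl4 (83662584 to 83664683, plus strand) are neighbours separated by 13228 bases. Cxcl2 (90903871 to 90905938), Cxcl10 (92346638 to 92348889) and Ccl24 (135569937 to 135573049) lie on chromosome 5, Cxcl12 (117168535 to 117181367) on chromosome 6 and Cxcr4 (128588199 to 128592293) on chromosome 1. The RefSeq start lies downstream of the GENCODE start for Cxcl2, so that the end of its window is inside the annotated gene, and upstream of it for Ccl3 and Cxcr4. The 120 bases before the RefSeq start of transcription are shown for the 6 genes with a promoter entry in RefSeq (build GRCm38.p6), because the genes fall into different expression patterns below. Capitals mark matches on either strand to the NF-kappaB motif, to TATAAA or to TGANTCA, the motif of AP-1 factors.

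Cxcl2, chr5:90903779-90903898, plus strand: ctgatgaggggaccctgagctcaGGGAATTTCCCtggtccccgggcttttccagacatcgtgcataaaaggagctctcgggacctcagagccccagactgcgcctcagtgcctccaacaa
Cxcl10, chr5:92348890-92349009, minus strand: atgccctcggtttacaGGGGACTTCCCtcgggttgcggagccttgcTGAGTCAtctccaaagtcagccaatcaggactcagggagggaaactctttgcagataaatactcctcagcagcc
Ccl3, chr11:83649379-83649498, minus strand: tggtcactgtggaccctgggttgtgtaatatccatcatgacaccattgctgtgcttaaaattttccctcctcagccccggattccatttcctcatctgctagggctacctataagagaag
Ccl12, chr11:82101725-82101844, plus strand: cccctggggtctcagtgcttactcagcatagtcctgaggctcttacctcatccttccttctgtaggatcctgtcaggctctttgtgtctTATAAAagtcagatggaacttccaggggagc
Cxcl12, chr6:117168415-117168534, plus strand: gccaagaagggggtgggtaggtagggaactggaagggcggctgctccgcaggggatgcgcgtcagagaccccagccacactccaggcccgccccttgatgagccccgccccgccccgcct
Cxcr4, chr1:128592300-128592419, minus strand: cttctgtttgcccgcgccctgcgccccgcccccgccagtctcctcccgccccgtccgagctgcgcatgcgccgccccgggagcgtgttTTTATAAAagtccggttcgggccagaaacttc

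The NF-kappaB motif was found in the windows of Cxcl2 and Cxcl10, in each case as 2 overlapping matches that begin 97 and 104 bases before the start. It was present in 3.68% of 32446 promoter windows of the same length. The window of Cxcl10 also held TGANTCA, found in 3.41% of all windows. TATAAA was found for Ccl12 and, as 2 overlapping matches on opposite strands, for Cxcr4, against 6.33% of all windows. The windows of Cxcl12 and Cxcr4 were 71.7% and 68.3% G and C, above those of the other 4 genes (47.5% to 59.2%) and above the median of all windows (55%). A match describes these letters and is not evidence of binding.

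Cells were grouped by marker genes that are not among the 10, on UMIs (counted molecules) per 10000 of the cell's total. The 1596 cells in 1 of 7 classes of 2139 cells in all were 419 macrophage-like (Mrc1, the mannose receptor), 107 microglia-like (P2ry12 and Tmem119), 199 myeloid-like (Mpo and Fcgr3), 211 megakaryocyte-like (Gp9), 389 arterial-like (Gja5), 101 plexus-like (Kitl and Esm1) and 170 EHT-like cells (Gfi1 and Neurl3). A cell that met 2 gates was kept in the narrower class in 3 cases: 18 microglia-like cells also met the Mrc1 gate, and 70 plexus-like and 57 EHT-like cells also met the Gja5 gate. The plexus-like class is thus largely and the EHT-like class partly arterial by marker, with Gja5 at 571 and 155 CPM against 1042 CPM in arterial-like sums. The summed plexus marker list overlapped, at 1251 to 1528 CPM in plexus-like and 1033 to 1629 CPM in arterial-like sums. Of its genes Kitl, Esm1, Apln, Aplnr and Nr2f2 were higher in plexus-like sums, and Plvap was lower (919 against 1265 CPM). The name plexus-like therefore describes the gate and not a separate plexus endothelium. A further 505 cells met no gate, and 38 met other combinations and were left out. Macrophage-like sums held Mrc1 at 608 UMIs per 1000000 (CPM) on average and C1qb at 2298 CPM. Microglia-like sums held C1qb at 2229 CPM and Siglech at 57.9 CPM, but Sall1, a defining gene of brain microglia, at 2.31 CPM, so that the name rests on the other markers. Many cells lay near a limit: 68 of 419 macrophage-like, 40 of 107 microglia-like, 52 of 199 myeloid-like, 21 of 389 arterial-like, 29 of 101 plexus-like and 67 of 170 EHT-like cells were within 2 times above theirs.

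Totals per genotype and replicate ranged from 14981582 to 46037450 UMIs, with 334 to 748 cells and medians of 38416.5 to 62116 UMIs per cell. No cell barcode was shared between the replicates. In EHT-like cells Nupr1 was 41.5 ± 9.25 CPM (SD, n = 2) in control and 2.30 ± 0.333 CPM (n = 2) in cKO sums, and in macrophage-like cells 33.8 ± 11.3 CPM against 1.28 ± 1.81 CPM. Only the EHT-like difference passed the test across all genes (edgeR, adjusted p = 0.00142). In plexus-like sums Nupr1 was 0 CPM in both genotypes and was not tested. The pools also differed in embryo sex: a UMI of Xist, expressed from the inactive X chromosome of females, was found in 94.6% and 98.7% of control cells and in 3.49% (replicate 1) and 57.6% (replicate 2) of cKO cells. The part of sex in any genotype difference below was not tested. All 101 cells outside the study's stated quality limits were from replicate 1. The microglia-like sums of replicate 1 held 7 control and 3 cKO cells, and only 5 of 211 megakaryocyte-like cells were from replicate 1, none of them cKO, so this class is described without a test.

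The chemokines divided into a set highest in macrophage-like cells (Ccl2, Ccl7, Ccl12, Ccl24, Cxcl2), a set highest in microglia-like cells (Ccl3, Ccl4, Cxcl10) and the pair Cxcl12 and Cxcr4, highest in endothelial classes. The placing of Cxcl2 and Cxcl10, and that of Cxcl12 and Cxcr4 in plexus-like cells, depended on the grouping. By marker lists Cxcl2 and Cxcl10 were highest in myeloid-like cells (271 and 63.8 CPM, against 124 and 45.6 CPM in macrophage-like cells). These list-based myeloid-like means had SDs of 499 and 86.0 CPM over 4 sums. Only 73 of the 199 myeloid-like cells kept their class in that grouping. With stricter gates Cxcl10 was 37.6 CPM in both macrophage-like and microglia-like cells. Levels are UMIs of the gene per 1000000 UMIs of a class, summed per genotype and replicate. A UMI counts the 3′ end of a molecule, so levels do not grow with gene length. Ccl2 was at 159 and 181 CPM in the 2 control sums of macrophage-like cells and at 172 and 334 CPM in the 2 cKO sums (replicates 1 and 2). Ccl2 was detected in 61.6% of these cells (258 of 419). They held 83.5% of all Ccl2 UMIs in the data and were 419 of all 2139 cells.

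**Figure D1:**
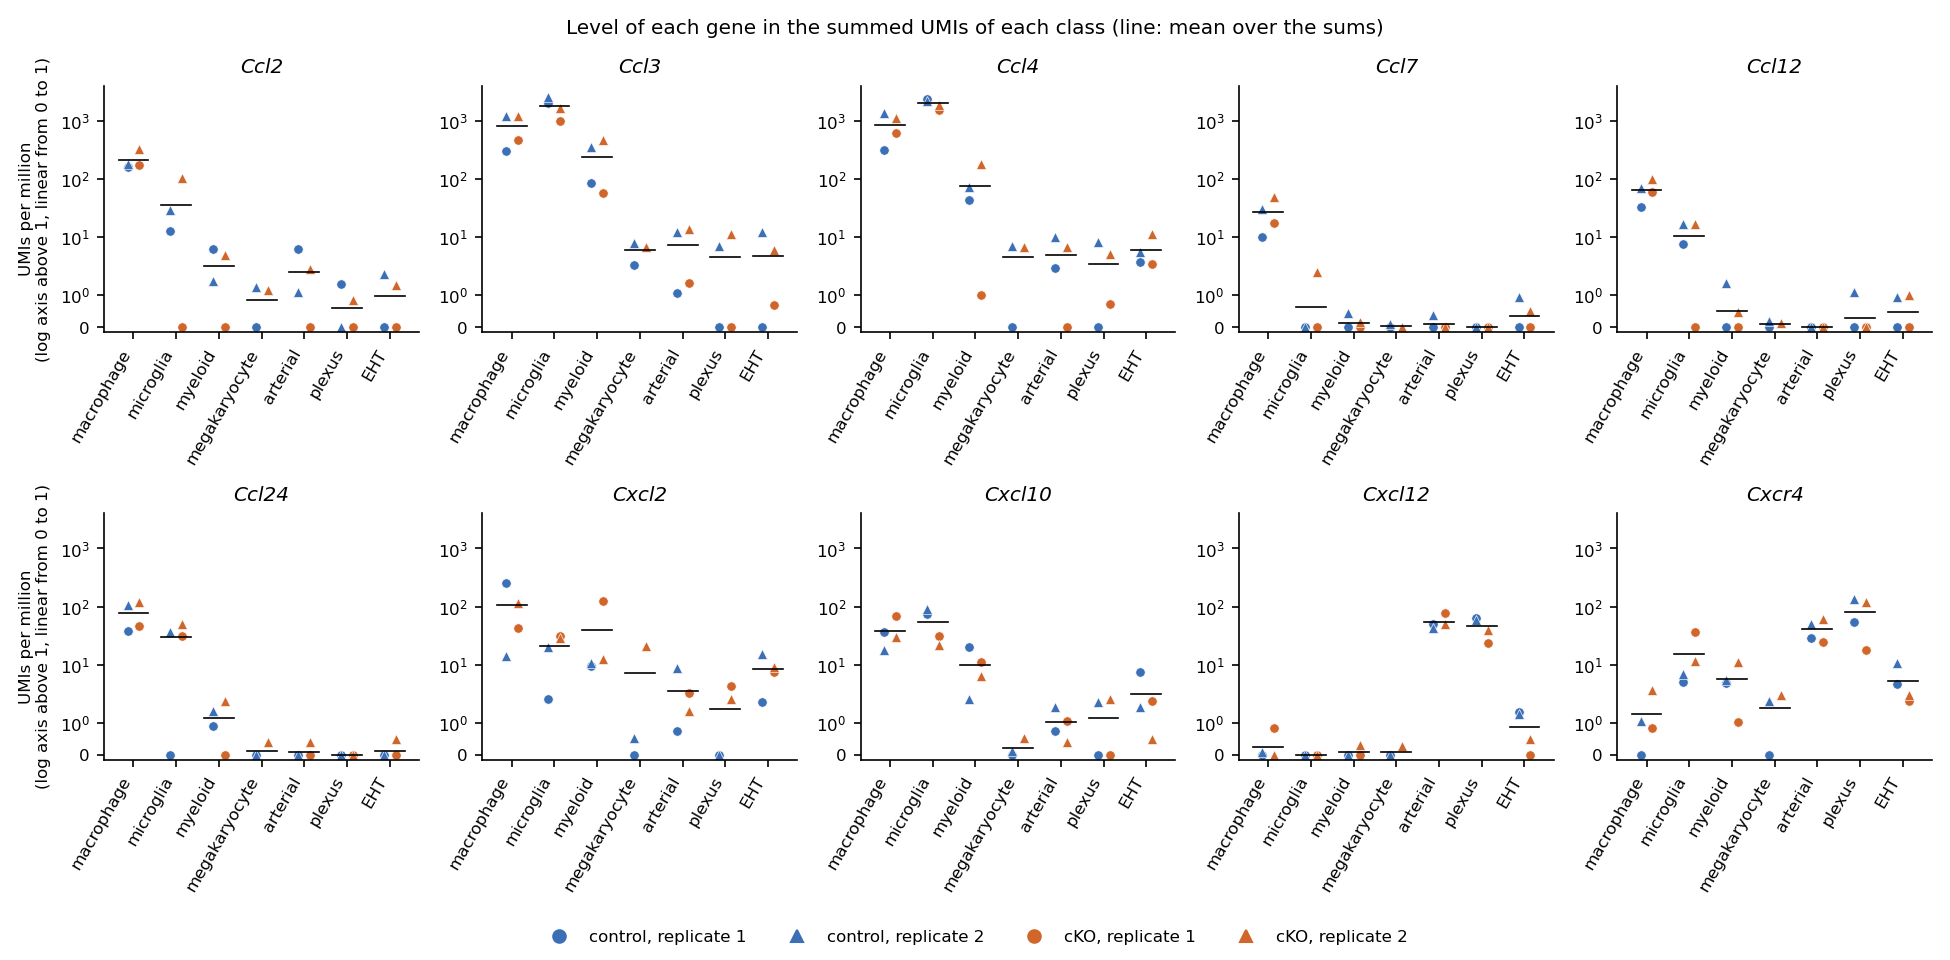
Level of each gene in CPM (y axis, logarithmic above 1) in the summed UMIs of each class (x axis). Each point is 1 sum of a genotype and replicate and the line is the mean of a class: Ccl7 and Ccl12 peak in macrophage-like cells, Ccl3 and Ccl4 in microglia-like cells, and Cxcl12 in arterial-like and plexus-like cells.

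Ccl12, a mouse Ccr2 ligand close to Ccl2, was at 32.5 and 71.2 CPM in control and 59.4 and 100.5 CPM in cKO macrophage-like sums. The same class held 91.9% of all Ccl12 UMIs. Ccl7 was lower, at 9.94 and 31.0 CPM in control and 17.2 and 49.6 CPM in cKO sums, and 95.7% of its UMIs were in macrophage-like cells, the highest such share of the 10 genes. For both genes the replicate 2 sum was the higher of its genotype. Ccl2, Ccl7 and Ccl12 are related genes, and reads were mapped with the default settings of Cell Ranger, under which reads that fit several genes are not counted.

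Ccl24, the eotaxin, was found in 83.1% of macrophage-like cells (348 of 419), more widely than Ccl2 although its level was lower. Its sums were 37.8 and 105 CPM in control and 45.5 and 119 CPM in cKO. In microglia-like cells 47.7% of cells had a UMI, and in arterial-like cells 1 of 389 (0.257%, exact 95% interval 0.00651% to 1.42%). When each cell was thinned to 6000 UMIs, which left out 4 macrophage-like and 16 arterial-like cells, the shares were 39.3%, 16.8% and 0.268%. Intervals cover counting error only.

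Against myeloid-like cells, the Mpo-expressing granulocyte and monocyte progenitors, macrophage-like sums were higher for 6 of 9 members tested and lower for 1, while 30.7% of all 9845 genes tested were called in either direction. The test was edgeR's quasi-likelihood test over 8 sums with Benjamini-Hochberg adjustment, as for every adjusted p given. Log2 fold changes were 5.96 ± 0.474 (SE) for Ccl2 (adjusted p = 4.12e-06), 6.84 ± 0.752 for Ccl7 (2.99e-05), 6.36 ± 0.556 for Ccl12 (5.23e-06) and 5.63 ± 0.560 for Ccl24 (2.07e-05). For these 4 genes every macrophage-like sum exceeded every myeloid-like sum, a separation not counted over all genes. Ccl4 was higher by 3.49 ± 0.902 (adjusted p = 0.0190) and Cxcl10 by 2.14 ± 0.554 (0.0133), and Cxcr4 was lower (−1.68 ± 0.583, adjusted p = 0.0462). The calls of Ccl4, Cxcl10 and Cxcr4 were lost in several alternatives, with adjusted p up to 0.0861, 0.729 and 0.152. The median log2 fold change of the 9 members was 3.49, against 0.02 for all genes. With the replicate as a block, 49.6% of all genes were called and Ccl3 joined the calls (1.94 ± 0.247, adjusted p = 0.00101, from 0.123 without the block; 0.000517 to 0.419 over the alternatives).

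Ccl3 and Ccl4 were the most abundant of the 9 chemokines in both macrophage classes. In microglia-like cells Ccl3 was at 2051 and 2550 CPM in control and 997 and 1667 CPM in cKO sums (replicates 1 and 2). Ccl4 was at 2390 and 2247 CPM in control and 1517 and 1875 CPM in cKO sums. Macrophage-like sums held less and differed between replicates: Ccl3 was at 307 and 475 CPM (control and cKO) in replicate 1 and at 1228 and 1212 CPM in replicate 2. Ccl4 followed with 321 and 631 CPM against 1362 and 1114 CPM. The spread between replicates of macrophage-like cells was thus larger than the gap between genotypes.

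Ccl3 was detected in 98.1% of microglia-like cells (105 of 107), 90.9% of macrophage-like cells and 69.8% of myeloid-like cells. Arterial-like cells gave 15.7% (61 of 389) at a median depth of 23425 UMIs, against 58623 UMIs in macrophage-like cells. Megakaryocyte-like cells, the second deepest class with 81795 UMIs, gave 41.7%. At 6000 UMIs a cell the shares were 90.7%, 71.8% and 37.2% in the first 3 classes, 3.49% in arterial-like and 2.84% in megakaryocyte-like cells. The last 2 values are alike and low. The arterial-like level of Ccl3 was 1.10 and 1.62 CPM in replicate 1 and 12.3 and 13.98 CPM in replicate 2. The part of free RNA in these UMIs was not tested.

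Between microglia-like and macrophage-like cells, 3 of 9 members tested were called (1 higher, 2 lower), where 5.91% of 8805 genes were called. Ccl7 was lower in microglia-like cells (log2 fold change −4.59 ± 0.902, adjusted p = 0.0130), with 0 UMIs in 3 of the 4 sums. Ccl12 was lower too (−2.14 ± 0.430, adjusted p = 0.0106), at 0 to 16.7 CPM against 32.5 to 100.5 CPM, and passed in all 17 alternatives. Ccl2 had the same sign without a call (−2.07 ± 0.634, adjusted p = 0.114), with 1 microglia-like sum (cKO, replicate 2) at 103 CPM and the others at 0 to 28.7 CPM, and it passed in 3 of 17 alternatives, among them without that sum (−3.25, adjusted p = 0.00453; 0.00207 to 0.334 over the alternatives). A single microglia-like cell of the cKO held 140 of the 320 Ccl2 UMIs of the class. Cxcr4 was higher (2.45 ± 0.611, adjusted p = 0.0328). Leaving out both microglia-like sums of replicate 1 gave adjusted p = 0.0520 for Ccl7 (3.43e-05 to 0.0628 over the alternatives) and 0.0603 for Cxcr4 (0.00123 to 0.152). Ccl3 and Ccl4 were 1.23 ± 0.519 and 1.28 ± 0.433 higher without passing the test (adjusted p = 0.268 and 0.155; 0.0859 to 0.536 and 0.00472 to 0.380 over the alternatives). Ccl4 passed in 2 of 17 alternatives, of which DESeq2 was 1, so that DESeq2 called 4 members.

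With the replicate block the comparison called 15.6% of genes. Ccl24 was then lower in microglia-like cells (−1.36 ± 0.231, adjusted p = 0.00146; 0.423 without the block, and 7.25e-05 to 0.665 over the alternatives), and Cxcr4 missed the threshold (2.34 ± 0.677, adjusted p = 0.0515). Cxcr4 in microglia-like cells rested on 53 UMIs in 26 of 107 cells.

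Myeloid-like cells had Ccl3 but proportionally little Ccl4. Of the Ccl3 and Ccl4 UMIs together, Ccl3 made up 48.8% and 47.4% in control and 43.0% and 52.1% in cKO sums of macrophage-like cells. The microglia-like sums gave 46.2% and 53.2% in control and 39.7% and 47.1% in cKO. In myeloid-like sums Ccl3 made up 66.6% (exact 95% interval 60.8% to 72.0%) and 83.2% (81.8% to 84.6%) in control and 98.3% (90.9% to 99.96%) and 72.1% (70.7% to 73.5%) in cKO. No myeloid-like sum overlapped with a sum of the other 2 classes. The contrast was seen before it was described, so no test is given. The myeloid-like Ccl4 UMIs were concentrated, with 5 of 199 cells holding 50% of them, against 11 cells for Ccl3, and the cKO sum of replicate 1 held 58 Ccl3 UMIs and 1 Ccl4 UMI from 12 cells.

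**Figure D2:**
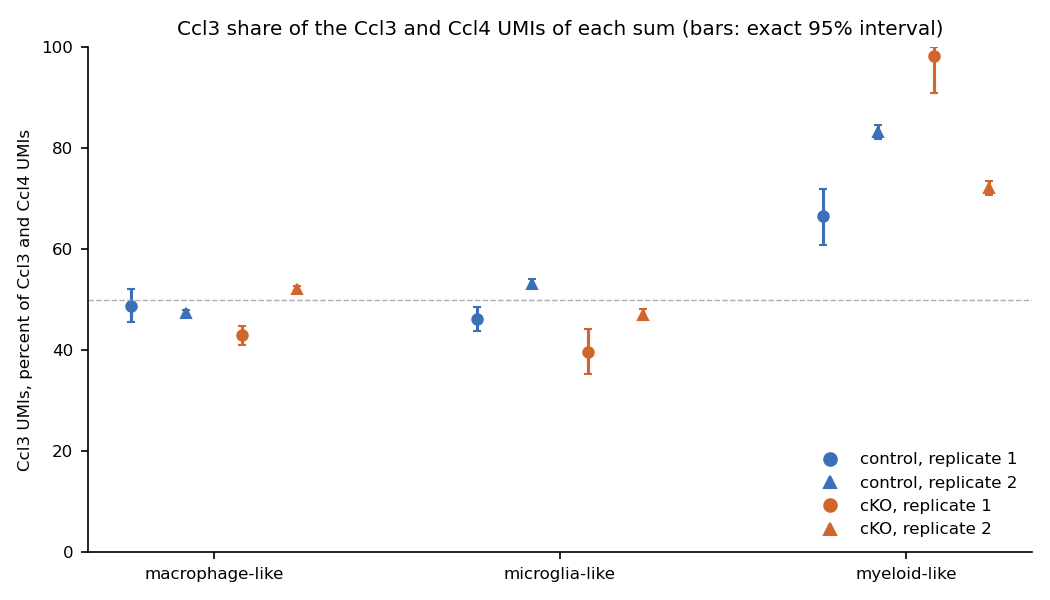
Share of Ccl3 among the Ccl3 and Ccl4 UMIs (y axis, percent) of each sum in 3 classes (x axis), with exact 95% intervals for counting error. Macrophage-like and microglia-like sums lie between 39.7% and 53.2%, and the 4 myeloid-like sums between 66.6% and 98.3%.

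Much of the Cxcl2 and Cxcl10 RNA came from few cells. Of 419 macrophage-like cells 79 had a Cxcl2 UMI, and 5 of them held 50% of the 1933 UMIs. The highest cell had 286. Cxcl10 was found in 89 macrophage-like cells, with 9 of them holding 50% of 747 UMIs. Ccl7 was as concentrated, with 9 of 102 cells, followed by Ccl12 (18 of 211) and Ccl2 (27 of 258), while 39 cells held 50% of the Ccl4, 62 of the Ccl3 and 66 of the Ccl24 UMIs. In microglia-like cells 1 control cell held 166 of 298 Cxcl10 UMIs (55.7%). In megakaryocyte-like cells 1 cKO cell held 151 of 162 Cxcl2 UMIs.

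The levels of both genes over sums varied accordingly. Cxcl2 in macrophage-like sums was 256 and 13.8 CPM in control and 43.0 and 115 CPM in cKO, so that neither genotype nor replicate ordered them. In myeloid-like cells it was 124.9 CPM in the cKO sum of replicate 1 and 9.26 to 12.7 CPM in the other 3, and 1 cell held 124 of the UMIs. Cxcl10 was 36.4 and 17.9 CPM in control and 68.0 and 30.1 CPM in cKO macrophage-like sums. A UMI was found in 18.9% (Cxcl2) and 21.2% (Cxcl10) of macrophage-like cells, close to the 24.3% of Ccl7.

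**Figure D3:**
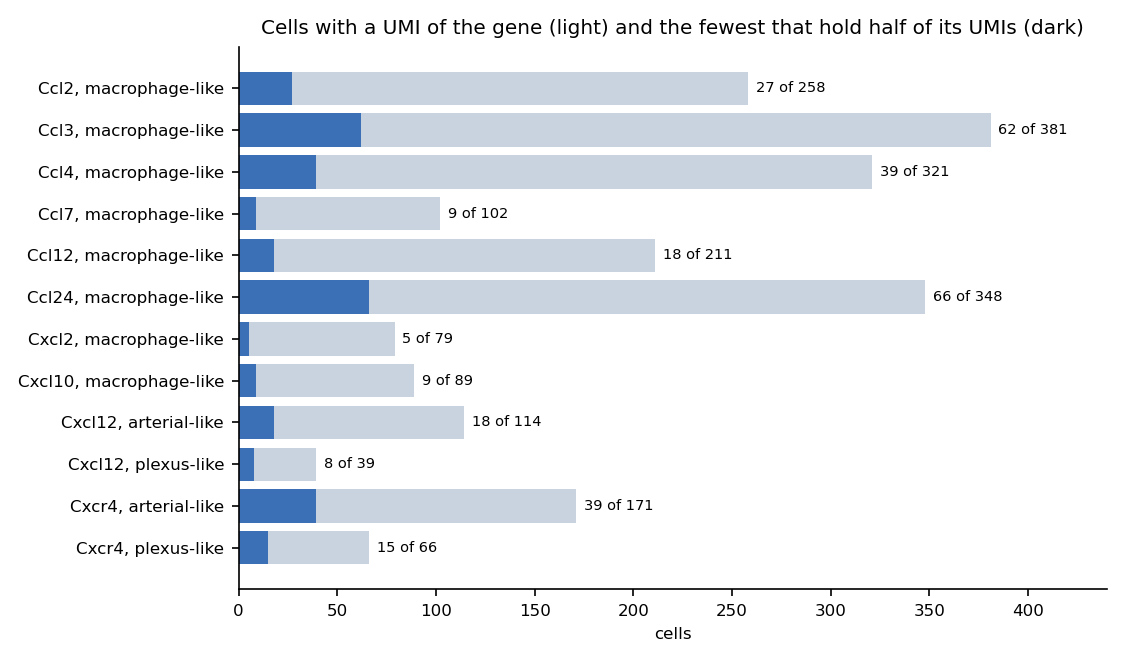
Cells (x axis) with at least 1 UMI of a gene (light bars) and the smallest number of cells that together hold 50% of its UMIs in that class (dark bars), by gene and class (y axis). For Cxcl2 in macrophage-like cells these are 5 of 79 cells, and for Ccl24 66 of 348.

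Across single macrophage-like cells the chemokines of 1 chromosome 11 group varied together. Correlations are Spearman's rho of UMIs per 10000, given as a description, over 67 cells of replicate 1 and 352 cells of replicate 2 that share a library and its depth. Ccl3 and Ccl4 had rho = 0.69 and 0.72. Ccl2 and Ccl7 had 0.48 and 0.51, Ccl2 and Ccl12 had 0.51 and 0.43, and Ccl7 and Ccl12 had 0.29 and 0.43. Pairs with 1 gene from each group lay at 0.18 to 0.46 in replicate 1 and at 0.12 to 0.27 in replicate 2, so that in replicate 1 the ranges within and between groups overlapped. In replicate 2, of 88 cells with a Ccl7 UMI 83 also had Ccl2 (94.3%), whereas 38.8% of cells with Ccl2 had Ccl7.

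Ccl24 stood apart from the other chemokines, with rho between −0.23 and 0.07 to each of the other 7 in both replicates. Its highest values among these were with Ccl12 and Ccl7 in replicate 2. Ccl24 had rho = 0.22 with Mrc1 in replicate 2, while Ccl3 had −0.20 and Ccl4 −0.16. Ccl3 and Ccl4 instead varied with the immediate-early genes, a list of 15 genes (Fos, Jun, Egr1 and others) that respond within minutes to stimulation and also to tissue dissociation. Ccl3 had rho = 0.67 and 0.60 with their sum in replicates 1 and 2, and Ccl4 0.46 and 0.48. With the inflammatory list (Tnf, Il1b, Nfkbia, Tnfaip3 and others) Ccl3 had 0.69 and 0.56. Ccl3 in microglia-like cells of replicate 2 had 0.58 with the immediate-early list (97 cells). The part of cell handling in these levels was not tested.

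**Figure D4:**
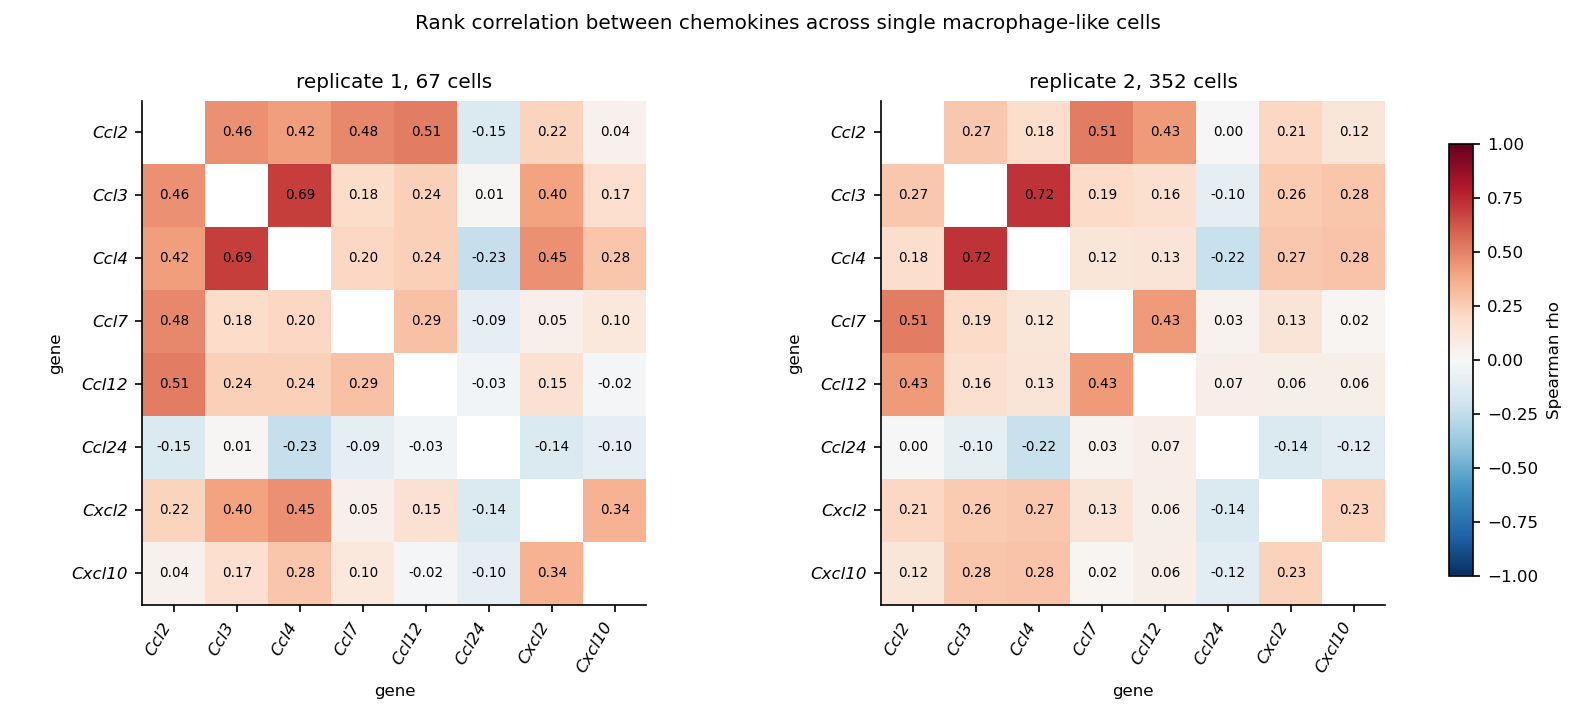
Spearman's rho between each pair of 8 chemokines (both axes list genes) across single macrophage-like cells of replicate 1 (67 cells) and replicate 2 (352 cells). The highest values are those of Ccl3 with Ccl4 (0.69 and 0.72), and the row of Ccl24 is near or below 0.

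Among the 7 classes as gated Cxcl12 was highest in arterial-like and plexus-like cells. Its pooled level was higher still, 277 CPM, in 24 cells of no gate nearest to a list of mesenchymal markers (Pdgfra, Col1a1, Tagln and others). Arterial-like sums, from Gja5-expressing cells of arteries, held 50.6 and 42.5 CPM in control and 76.6 and 49.9 CPM in cKO. Plexus-like sums held 64.0 and 58.8 CPM in control and 23.7 and 38.9 CPM in cKO. In the grouping by marker lists the mean of Cxcl12 was 5.58 CPM in plexus-like and 58.8 CPM in arterial-like cells. EHT-like sums, from cells with the transition genes Gfi1 and Neurl3, held 0 to 1.51 CPM. Cxcl12 was found in 29.3% of arterial-like cells (114 of 389), 38.6% of plexus-like cells and 2.35% of EHT-like cells (4 of 170), although EHT-like cells were deeper (50674 against 23425 UMIs at the median). None of 107 microglia-like cells had a Cxcl12 UMI, which allows a share of cells with a UMI of up to 2.80% (3 counts).

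Cxcr4, the receptor of Cxcl12, was highest in plexus-like cells as gated, at 54.7 and 135 CPM in control and 18.0 and 119 CPM in cKO sums. In the grouping by marker lists its mean was 12.5 CPM in plexus-like, 17.9 CPM in myeloid-like and 54.2 CPM in arterial-like cells. Arterial-like sums held 29.0 and 49.2 CPM in control and 24.3 and 61.5 CPM in cKO, and EHT-like sums 2.40 to 10.7 CPM. In arterial-like and in plexus-like cells each replicate 2 sum exceeded both replicate 1 sums, so that the replicates differed by more than the genotypes. Cxcr4 was found in 65.3% of plexus-like, 44.0% of arterial-like and 15.9% of EHT-like cells, and at 6000 UMIs a cell in 33.7%, 21.2% and 1.76%.

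EHT-like cells differed from arterial-like cells in both genes. Cxcl12 was lower by a log2 fold change of −5.90 ± 0.394 (adjusted p = 2.48e-07) and Cxcr4 by −2.98 ± 0.431 (adjusted p = 0.000152), with no overlap between the 4 sums of each class. The share of all genes without such overlap was not counted. Both calls held in all 16 alternatives. These were 2 of 5 members tested, where 42.8% of 9905 genes were called, so that a call in this comparison is common. Plexus-like cells did not differ from arterial-like cells beyond the spread between sums: Cxcr4 was 1.04 ± 0.588 higher (adjusted p = 0.379) and Cxcl12 −0.22 ± 0.272 (adjusted p = 0.725). Of the 3 members tested here edgeR called 0, DESeq2 called 0 and the unadjusted p was below 0.05 for 0, against 9.56% of 8891 genes (17.3% with the replicate block, in which Cxcr4 had adjusted p = 0.0675). Leaving out the cKO plexus-like sum of replicate 1 brought Cxcr4 past the threshold (1.403, adjusted p = 0.0476). Grouping by whole marker lists turned its direction (−2.25, adjusted p = 0.0137; 0.000102 to 0.667 over the alternatives) and gave −3.41 for Cxcl12 (adjusted p = 4.87e-06; up to 0.974), and only 41 of the 101 plexus-like cells kept their class in that grouping.

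Ligand and receptor occurred in the same endothelial cells. Among arterial-like cells with a Cxcl12 UMI, 49.2% in replicate 1 (32 of 65) and 69.4% in replicate 2 (34 of 49) also had a Cxcr4 UMI. Among those without Cxcl12 the shares were 26.8% and 49.6%. Spearman's rho between the genes was 0.27 and 0.15 over 203 and 186 arterial-like cells. In plexus-like cells 58.8% (10 of 17) and 90.9% (20 of 22) of cells with Cxcl12 had Cxcr4, against 42.9% and 77.8% of those without. The rho of total UMIs in arterial-like cells was 0.15 with Cxcl12 and 0.16 with Cxcr4 in replicate 1, which holds the cells outside the quality limits, and 0.02 and 0.03 in replicate 2. The part of depth in the co-occurrence was not tested.

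The comparison of cKO with control asked whether loss of Nupr1 changed these genes in any class. Of 8 members tested in macrophage-like cells, edgeR called 0, DESeq2 called 0, and 0 had an unadjusted p below 0.05. Over all 10175 genes 0% were called, with 44 at an unadjusted p under 0.05 and 0 in DESeq2. The 2 pools pair the sums, since both genotypes of a replicate share a library. With the replicate as a block 39 genes were called (0.383%), and 3 of them were members, each higher in cKO. Ccl7 rose by 0.72 ± 0.177 (adjusted p = 0.0351; up to 1.00 over the other alternatives), Ccl12 by 0.63 ± 0.134 (0.00578; up to 1.00) and Cxcl10 by 0.83 ± 0.162 (0.00158; up to 1.00), all log2. Each was higher in cKO in both replicates, as were Ccl2 and Ccl24. The blocked fit favours genes whose replicates agree, so this agreement adds no support. How many of all genes rose in both replicates was not counted.

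**Figure D5:**
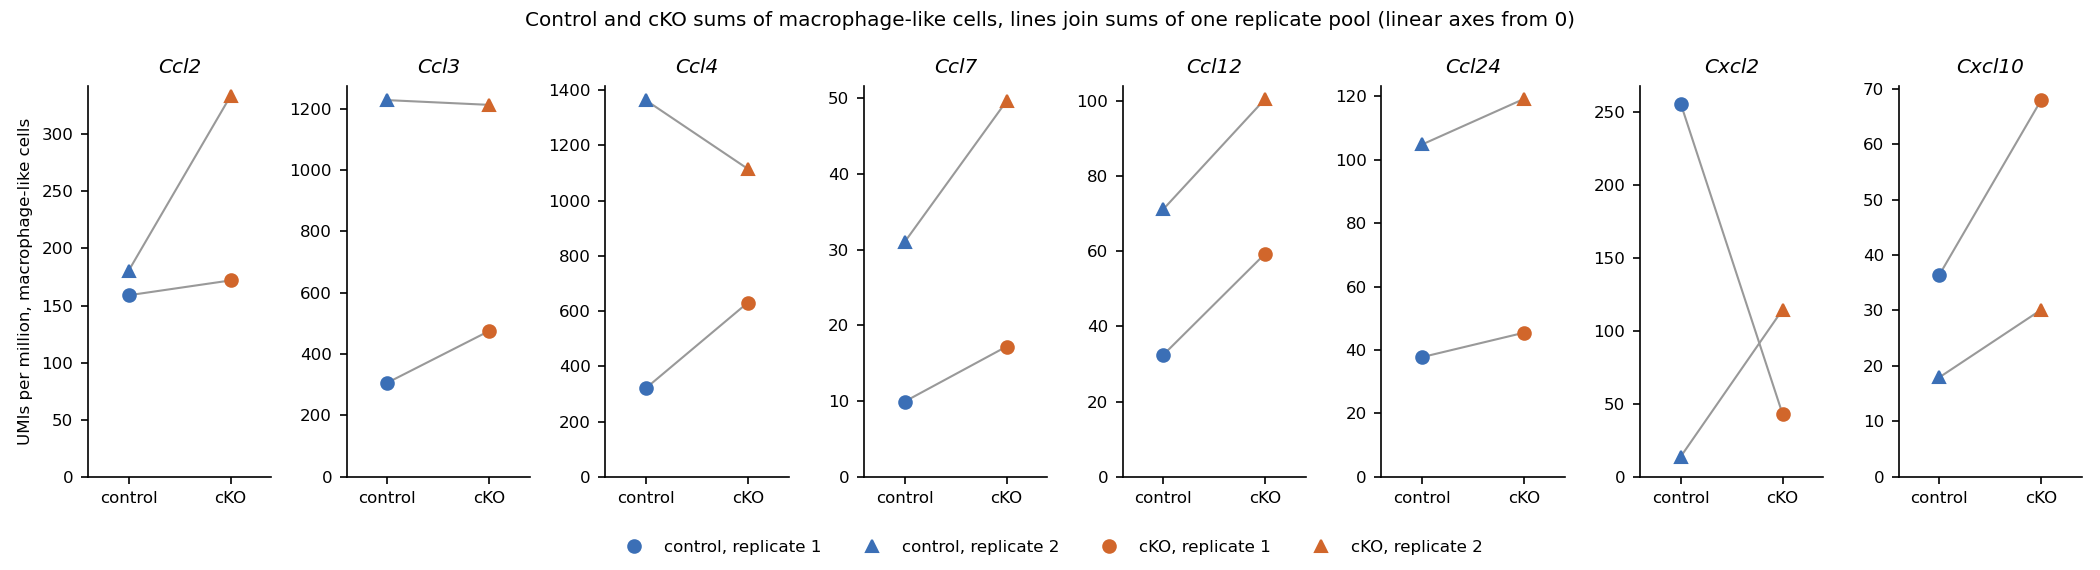
Level in CPM (y axes, linear from 0 and scaled per gene) of 8 chemokines in control and cKO sums of macrophage-like cells (x axis), with lines joining the sums of a replicate. Ccl2, Ccl7, Ccl12, Ccl24 and Cxcl10 are higher in cKO in both replicates, and Ccl3, Ccl4 and Cxcl2 move in opposite directions.

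The other 5 members tested in macrophage-like cells had log2 changes of 0.59 ± 0.176 (Ccl2, adjusted p = 0.586), 0.24 ± 0.130 (Ccl24), 0.31 ± 0.295 (Ccl3), 0.32 ± 0.598 (Ccl4) and 0.46 ± 2.83 (Cxcl2) with the block. Cxcl2 depended on single sums: without the control sum of replicate 1 its change was 2.52 (adjusted p = 0.000242) and without that of replicate 2 it was −1.54 (0.0364), against −0.58 with all 4 sums (0.000242 to 1.00 over the alternatives). Of the 10 members the median change without the block was 0.41 over the 8 tested, against 0.00 for all genes. The immediate-early sum was 3852 and 4694 CPM in control and 3761 and 6163 CPM in cKO macrophage-like sums, and the inflammatory sum 382 and 234 CPM against 297 and 384 CPM. Of the 7 megakaryocyte markers all had UMIs in these cells, with a summed level of 529 and 604 CPM in control and 559.8 and 908 CPM in cKO (replicates 1 and 2), nearly all of it Pf4 (637 CPM on average), while the defining marker Gp9 was at 1.36 CPM. The part of these RNAs in the differences was not tested. Sex differed between the genotypes as described above.

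In microglia-like cells 0 of 8 members tested passed in edgeR (2 at an unadjusted p under 0.05) and 0 in DESeq2, with 0% of 7830 genes called (46 at an unadjusted p under 0.05, 0 in DESeq2). Ccl3, Ccl4 and Cxcl10 were each lower in both cKO sums than in both control sums. Their log2 changes were −0.85 ± 0.324, −0.51 ± 0.267 and −1.82 ± 0.430, with an adjusted p of 1.00 for each. How many of all genes separated in the same way was not counted, so the separation is only a description. Cxcl10 was 73.8 and 90.1 CPM in control and 31.5 and 22.0 CPM in cKO, with 1 control cell of replicate 2 holding 166 of the UMIs. Cxcl2 and Cxcr4 were the reverse, higher in both cKO sums, at 31.5 and 28.2 CPM against 2.55 and 20.2 CPM for Cxcl2. Those of replicate 1 came from 10 cells in all. The inflammatory sum was also lower in each cKO sum of its replicate, at 1094 and 463 CPM in control and 483 and 382 CPM in cKO, with a median change of −0.89 over 7 genes tested, none called. Its part in the differences was not tested.

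In myeloid-like cells 0 of 6 members tested passed (0 at an unadjusted p under 0.05, 0 in DESeq2), where 0.0102% of genes, 1 of 9815, was called. Ccl3 was 85.1 and 359 CPM in control and 58.4 and 472 CPM in cKO, and Ccl4 42.8 and 72.4 CPM against 1.01 and 183 CPM. The replicates differed more than the genotypes for both. Leaving out single sums turned Ccl4 from −5.87 (without cKO replicate 2) to 1.65 (without cKO replicate 1), and the cKO excess of Cxcl2 passed in 3 such fits but rested on 1 cell.

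In arterial-like cells 0 of 4 members passed (0 at an unadjusted p under 0.05, 0 in DESeq2), and 0% of 9992 genes were called, with 101 at an unadjusted p under 0.05 and 0 in DESeq2. Cxcl12 was 0.43 ± 0.270 (log2) higher and Cxcr4 0.16 ± 0.424. The arterial-like sum highest for Cxcl12 (cKO, replicate 1, 76.6 CPM) also held 255 CPM of the mesenchymal list, against 53.5 to 82.7 CPM in the others. The part of mesenchymal RNA in the difference was not tested. In plexus-like cells 0 of 2 passed (1, Cxcl12, at an unadjusted p under 0.05, and 0 in DESeq2), and 0% of 7754 genes were called, with 238 at an unadjusted p under 0.05 and 1 in DESeq2. Cxcl12 was lower in both cKO sums than in both control sums (−0.97 ± 0.334, adjusted p = 1.00), a separation not counted over all genes. Nupr1 itself was at 0 CPM in the plexus-like sums of both genotypes. In EHT-like cells 0 of 4 passed (1, Cxcr4, at an unadjusted p under 0.05, and 0 in DESeq2), and 0.0105% of genes were called, 1 of 9551. Cxcr4 was −1.47 ± 0.5997 (adjusted p = 1.00), at 4.54 and 10.7 CPM in control and 2.40 and 3.04 CPM in cKO, from 48 UMIs in all.

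Of 50 other genes of the chemokine system 16 reached 10 CPM on average in a class, and 6 had no UMI. Among ligands, Ccl6 and Ccl9 were highest in macrophage-like cells (130 ± 40.2 and 170 ± 17.2 CPM, SD, n = 4). The platelet chemokines Pf4 and Ppbp reached 24416 ± 6176 and 1864 ± 1174 CPM (n = 3) in megakaryocyte-like cells, followed by Cxcl5 at 82.6 ± 29.6 CPM. Ccl17 peaked in myeloid-like cells (11.3 ± 7.08 CPM, n = 4). The membrane-bound ligands Cxcl16 and Cx3cl1 peaked in arterial-like cells (15.0 ± 6.35 and 18.6 ± 4.405 CPM) and Cxcl1 in plexus-like cells (15.5 ± 16.8 CPM).

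Among receptors, Ccr1, which binds Ccl3, was highest in microglia-like cells (127 ± 78.1 CPM, n = 4), as were Cx3cr1, the receptor of Cx3cl1 (824 ± 323 CPM), and Ccrl2 (66.6 ± 41.7 CPM). Ccr2, the receptor of Ccl2, Ccl7 and Ccl12, was highest in myeloid-like cells (13.1 ± 4.22 CPM) and 3.06 CPM in macrophage-like cells. Cxcr2, the receptor of Cxcl2, was at 36.1 ± 35.2 CPM in macrophage-like cells, 31.4 ± 15.8 CPM in microglia-like and 29.2 ± 9.03 CPM in myeloid-like cells. Ackr3, the other Cxcl12 receptor, was highest in plexus-like cells (34.5 ± 23.7 CPM) and, like Cxcr4, lower in EHT-like than in arterial-like cells (−3.22 ± 0.536, adjusted p = 0.000372).

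Between microglia-like and macrophage-like cells 10 genes of the list were tested, of which 3 were higher (Cxcl16, Ccr2, Ccrl2) and 1 lower (Ccl9), with a median of 0.71 against −0.01 for all genes and 5.91% of all genes called. Ccrl2, an atypical receptor, was 2.54 ± 0.411 higher (adjusted p = 0.00299) and Ccl9 −1.51 ± 0.394 (adjusted p = 0.0485). Of the 15 immediate-early genes 5 were higher in microglia-like cells (Junb, Ier2, Ier3, Zfp36, Nr4a1) and 0 lower, and of 7 inflammatory genes tested 0 passed. Between macrophage-like and myeloid-like cells 8 of 12 list genes were higher and 2 lower (Ccl17 and Ccr2), where 30.7% of all genes were called. In that contrast 6 of 15 immediate-early genes were higher and 1 lower, and 4 of 7 inflammatory genes were higher. Between EHT-like and arterial-like cells 1 of 6 list genes was higher (Ccl9) and 3 lower (Cxcl16, Cx3cl1, Ackr3), with 3 of 15 immediate-early genes higher and 2 of 3 inflammatory genes lower, where 42.8% of all genes were called. Between plexus-like and arterial-like cells 0 of 5 were higher and 1 lower (Cxcl16), with 2 of 15 immediate-early genes and 1 of 3 inflammatory genes higher, where 9.56% of all genes were called. In the 6 comparisons of cKO with control no gene of these 3 lists passed the test. The largest summed immediate-early level was 11163 CPM, in cKO EHT-like cells of replicate 2.

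Genes most like each member were sought by Pearson's r of log2(CPM + 1) over 24 sums of at least 10 cells, among 12081 genes with at least 100 UMIs. The sums share 2 libraries and 7 classes, so r mainly describes class patterns. Ccl24 was most like A130077B15Rik, Abca9 and Il18 (r = 0.99, 0.99 and 0.98), and Ccl12 like Clec4a1, Snx2 and Clec10a (0.98, 0.97 and 0.97). Ccl7 was most like Timd4, a receptor for phosphatidylserine on resident macrophages (0.97), then Msr1 (0.91) and Fcna (0.90). Ccl2 was nearest to Snx2, A130077B15Rik and Hdac9 (0.96, 0.96 and 0.95). Ccl4 was nearest to Trem2, Csf1r and Ctss (0.97 each) and Ccl3 to Atp6v0b, Pld4 and Ly86 (0.96 each).

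Cxcl2 had the weakest partners, among them Gpr84 and Myo7a (0.81 each), and Cxcl10 had Dleu2, Tlr2 and Stat6 (0.92, 0.91 and 0.91). The genes most like Cxcl12 were Erbb2, Kcnq1 and Sulf1 (0.99, 0.98 and 0.97), and those most like Cxcr4 were Tsg101, Yipf3 and Adipor1 (0.92, 0.92 and 0.90). Cells in no gate held 30.7% of all Ccl3 UMIs, 29.1% of Ccl4 UMIs and 33.1% of Cxcl12 UMIs, so the classes do not account for all expression of these genes.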

How the data were processed

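Cells sorted as CD31+ CD44+ were captured on a 10x Chromium instrument in 2 libraries, each holding both genotypes. The deposited values are raw UMI counts per gene and cell, made by the authors with Cell Ranger 5.0.1 on build mm10, and cells with 1 hashtag were kept by the authors, which removed doublets of different hashtags; no further doublet call was made here. Values from 24543 genes were used for 2139 cells. No filter was applied to the cells here, and the stated limits (1800 genes, 6000 UMIs, 5% mitochondrial) were an alternative.

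Classes were set by marker gates (at least 1 UMI per 10000 for Mrc1, Gp9, Gja5 and Mpo, 0.25 for the others). UMIs were summed per class, genotype and replicate, since cells are not replicates. Sums were tested with edgeR 4.0.16 in R 4.3.3 (filterByExpr, TMM, quasi-likelihood test, Benjamini-Hochberg adjusted p of 0.05 over all genes tested), without a block. Both genotypes of a replicate number come from 1 library, so the numbers pair the sums, and deviations of same-numbered sums correlated at 0.233 to 0.481 over 6 classes. Alternatives were the replicate block, RLE factors, DESeq2 1.42.0, no low-count filter, stricter gates, marker list scores, the stated limits, thinning to 6000 UMIs and leaving out each sum. Leaving out the microglia-like sums of 10 or fewer cells, and using replicate 2 alone, were added after seeing the data. The test was also run on simulated counts without a replicate effect, so that run does not cover the pairing of the sums. Intervals are exact (Clopper-Pearson, 95%) and a share of 0 allows 3 counts.

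All 10 genes were described whatever their values. Of 50 other chemokine-system genes those of at least 10 CPM in a class were named, of the immediate-early and inflammatory lists those past the test, and for each member the 3 genes most alike. A few genes that these rules would name are not reported here. The members and lists were chosen with earlier results of these data known. The Ccl3 share, the UMI spread and the correlations across cells were chosen after values were seen. Tables were handled in Python 3.11.15 with pandas 2.3.3, numpy 2.4.6 and scipy 1.17.1.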

Additional observations from a re-analysis of the deposited data

Results flagged for a closer look

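Ccl2 in macrophage-like cells was 334 CPM in the cKO sum of replicate 2, far from the other 3 sums (159 to 181 CPM). Cxcl2 in myeloid-like cells was 125 CPM in the cKO sum of replicate 1, against 9.26 to 12.7 CPM in the others. These were 2 of 23 groups of 4 sums looked at, and chance alone gives about 1 in 20.

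In pairs of classes with a mean of at least 10 CPM in both, 3 genes changed one way between control and cKO in both replicates of one class and the other way in both replicates of the other. The change of Ccl12 in microglia-like minus that in macrophage-like cells was −0.72 on the log2 scale (edgeR interaction, adjusted p = 1.00). Its microglia-like side was nearly flat in replicate 2, at 16.73 CPM in control and 16.61 CPM in cKO (39 and 40 UMIs). In replicate 1 it rested on 3 control UMIs against 0 in cKO. For Cxcl10 the same difference was −2.76 (unadjusted p = 0.00103, adjusted p = 1.00), with 1 control microglia-like cell holding 55.7% of that class's UMIs. For Cxcl12 the change in plexus-like minus that in arterial-like cells was −1.40 (unadjusted p = 0.00714, adjusted p = 1.00). None passed the adjusted threshold.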

How the results depend on the processing

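For cKO against control, the replicate block gave 39 genes called in macrophage-like, 0 in myeloid-like, 5 in arterial-like, 1 in plexus-like and 3 in EHT-like cells. DESeq2 gave 2 in myeloid-like, 1 in plexus-like and 3 in EHT-like cells. Without the low-count filter the counts were 9 (macrophage-like), 5 (microglia-like), 7 (myeloid-like), 2 (arterial-like), 22 (plexus-like) and 11 (EHT-like). The stricter gate gave 0 in myeloid-like cells, and marker list scores gave 1 in microglia-like, 2 in myeloid-like and 0 in EHT-like cells. The block gave 1371 genes for microglia-like against macrophage-like, 4886 for macrophage-like against myeloid-like and 1541 for plexus-like against arterial-like cells. Replicate 2 alone gave 1563 and 5370 in the first 2 of these contrasts, and marker list scores 1671 and 2975 in the last 2. Leaving out 1 sum gave 4 to 23 (macrophage-like), 0 to 35 (microglia-like), 12 to 34 (myeloid-like), 1 to 18 (arterial-like), 1 to 145 (plexus-like) and 5 to 26 genes (EHT-like) for genotype, and 338 to 561 genes for microglia-like against macrophage-like cells. A lone sum was assumed to vary like the other group.

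Of the log2 changes of members over all alternatives, 704 kept their side of the threshold (57 with a change of sign while neither value passed), 27 gained a call, 27 lost one and 3 reversed. Cxcl2 in macrophage-like cells, cKO against control, ranged from −1.57 (without cKO replicate 2) to 2.52 (without control replicate 1), and Ccl4 in myeloid-like cells from −5.87 to 1.65. Cxcr4 in plexus-like against arterial-like cells was −2.25 with marker list scores. The causes were not tested. Apart from the calls of Ccl3, Ccl7, Ccl12, Ccl24, Cxcl10 and Cxcr4 whose blocked values stand beside their results, the replicate block changed no member's call. Thinning moved 63 of 70 shares by more than their interval, so shares depend on depth.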

Other observations

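Cells that met no gate also held chemokine RNA. Assigned by marker lists, 24 of the 505 held 331 of the 353 Cxcl12 UMIs found outside the gates, and these were the cells highest for the mesenchymal list (Pdgfra, Col1a1, Tagln and others). In the 12 cells without a gate that had at least 5 Cxcl12 UMIs the median of that list was 69.2 UMIs per 10000, against 0 in the other cells without a gate. Of the Ccl3 UMIs outside the gates, 8956 were in 87 cells nearest to the macrophage list, 4996 in 108 nearest to the progenitor list and 4677 in 45 nearest to the microglia list. These groupings were looked at after the values were seen.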
